A study of Mus musculus with 3 samples.

Results

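Autophagy is the route by which a cell wraps part of its cytoplasm in a double membrane, the autophagosome, and delivers it to the lysosome for digestion. The ULK1 kinase complex starts the process, the class III PI 3-kinase complex marks the membrane with a phosphoinositide, ATG9, ATG2 and WIPI proteins bring lipid, and a pair of ubiquitin-like conjugation systems attach ATG8 proteins to the growing membrane. Cargo receptors bind ATG8 proteins on one side and tagged cargo on the other, and in macrophages this machinery takes part in clearing bacteria, damaged mitochondria and inflammasome components. The set described here holds 37 genes of this machinery, picked by symbol among the 55536 annotated genes of the deposited gene table, and all 37 symbols were found. They fall into the ULK1 complex (5 genes), the class III PI 3-kinase complex (6 genes), membrane supply (5 genes), conjugation of ATG12 and ATG8 proteins (7 genes), the ATG4 proteases (4 genes), the ATG8 family (5 genes) and cargo receptors (5 genes).

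RNA came from the cytosolic fraction of primary bone marrow-derived macrophages (C57BL/6J mice), and was sequenced as total RNA after depletion of ribosomal RNA. The cells were pre-treated with Lipid A, the TLR4-binding moiety of lipopolysaccharide, at 100 ng/ml for 12 h, kept without it for 12 h, and stimulated with 100 ng/ml again for 90 min. All 3 libraries, replicates 1 to 3, belong to this group and carry the same donor record, so every SD and adjusted p below measures only the spread between these samples. Sex and age were not collected, per the labels. Cells without Lipid A, or with a single exposure, were not analysed here, so every value is a level and not a response to Lipid A. In bulk RNA, fewer cells with a transcript and less of it per cell cannot be told apart. RNA of the nucleus was not analysed here, and RNA levels do not measure autophagic flux.

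The libraries held 40637857, 70407572 and 49678390 expected counts (counts that the authors' program assigned to genes) in replicates 1, 2 and 3. A level of 1 TPM (transcript abundance corrected for length and scaled to a fixed total) on a transcript of 2 kb effective length was worth 125, 237 and 177 counts in these libraries. RNA of the 7SL genes, a structural RNA of the signal recognition particle, took 60.4, 60.6 and 56.4% of all TPM, which lowers the TPM of every mRNA. All 7 macrophage markers were detected, with Lyz2, Adgre1 and Cd68 the highest. None of 14 markers of other marrow cells was detected, and their summed level was 0.91, 0.58 and 0.72 TPM, with the neutrophil marker Ly6g at 0 counts in each library, which allows up to 0.120, 0.0604 and 0.0831 TPM by a limit of 3 counts.

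RNA of nearly all genes of the set was detected in these macrophages. At 1 TPM or more in all 3 libraries, 36 of the 37 genes were detected (97.3%), against 16.7% of all annotated genes and 40.1% of protein-coding genes. The gene below the threshold was Atg16l2, a paralogue of the conjugation scaffold Atg16l1. The median of log2(TPM + 1) over the 37 genes was 2.94 ± 0.02 (SD, n = 3), and over the 8838 protein-coding genes detected in all libraries it was 3.24 ± 0.07. In TPM, the median gene of the set had 7.24 and the median detected protein-coding gene had 8.51. In every library 12 of the 37 genes reached 10 TPM, against 3651 of the 8838 detected protein-coding genes. Only Sqstm1 and Gabarap reached 100 TPM, against 413 of those 8838 genes.

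Sqstm1 and Gabarap together made up 67.2 ± 4.43% of the summed TPM of the 37 genes (SD, n = 3). Sqstm1 (ENSMUSG00000015837.15, mm10 chr11:50199366-50210827, minus strand) encodes p62, the receptor that links ubiquitin-tagged cargo to ATG8 proteins, and ranked 68 by mean TPM among 22028 protein-coding genes. Gabarap (ENSMUSG00000018567.14, mm10 chr11:69991143-69994951, plus strand) encodes an ATG8 protein and ranked 157. When the genes were placed in order of mean TPM, neighbours could be separated by their ranges over the libraries in 7 of 36 places. Those places set apart Sqstm1, Gabarap, Tax1bp1 and Becn1 at the top, Wipi1 and Atg16l2 at the bottom, and Atg5 from Atg12 in between. The other 29 neighbouring pairs overlapped, so the order of most neighbours between 2.86 and 26.0 TPM was not resolved. Genes further apart in that span could be separated, such as Uvrag at 13.4 to 17.4 TPM and Atg14 at 2.60 to 3.18 TPM.

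**Figure D1:**
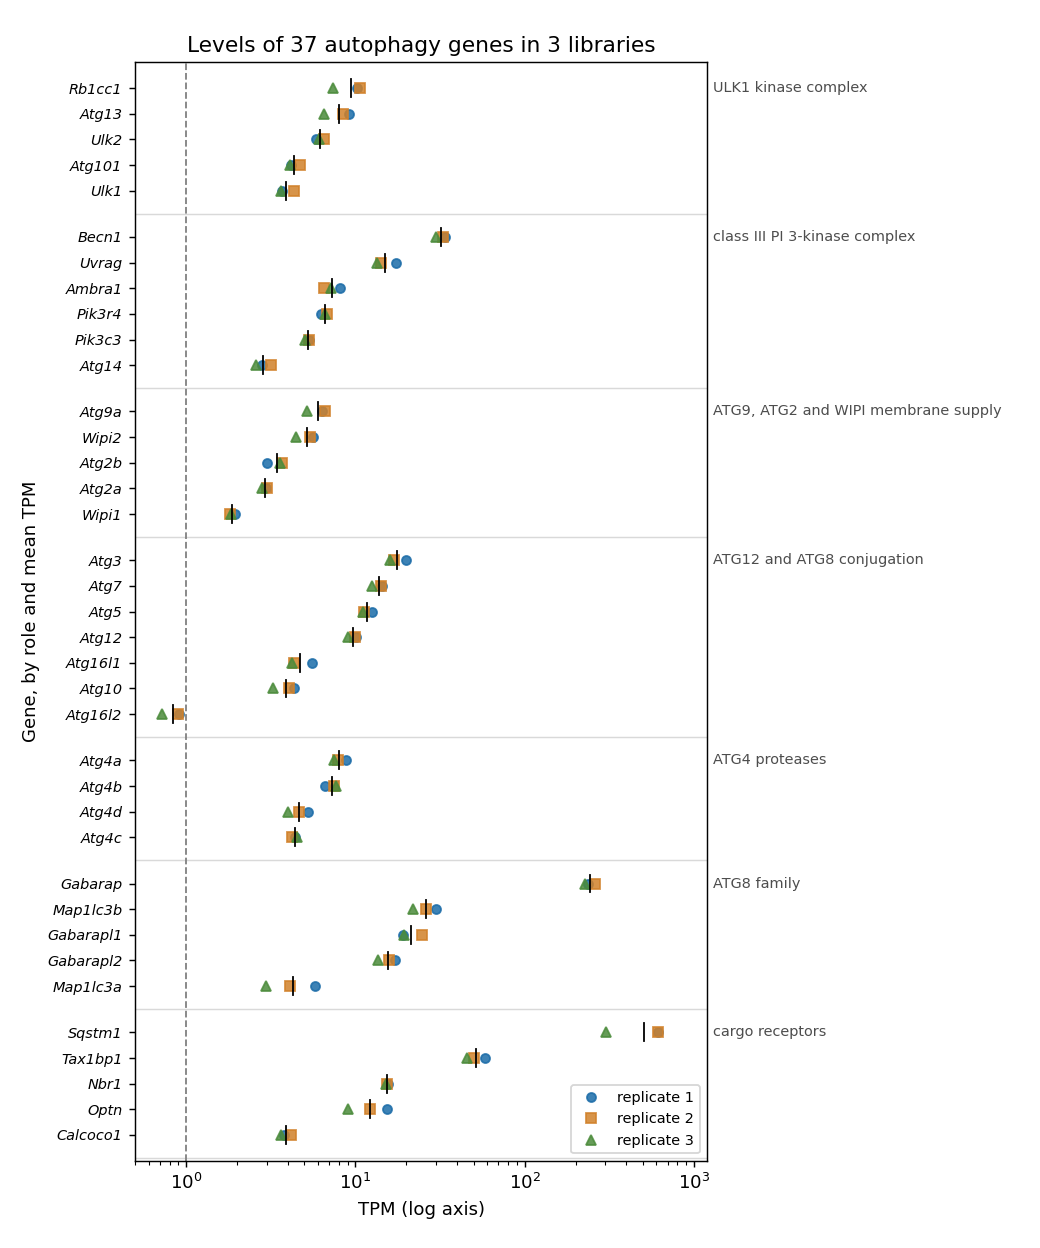
TPM of each of the 37 autophagy genes in replicates 1, 2 and 3 on a log axis, grouped by role and ordered by mean TPM within a role; black ticks mark the mean and the dashed line the detection threshold of 1 TPM. Sqstm1 and Gabarap lie above 100 TPM, Atg16l2 lies under the line in all 3 libraries, and the means of the other genes lie between 1.87 and 51.4 TPM.

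RNA of the kinase complex that starts autophagy was found at low levels, with means from 3.90 to 9.40 TPM. Rb1cc1, which encodes the scaffold FIP200, had 10.2, 10.6 and 7.35 TPM in replicates 1, 2 and 3 and was the highest of the 5 genes by mean level. On protein-coding transcripts only, a setting chosen after seeing the data, Atg13 was above it in each library, with 8.47, 7.72 and 6.04 TPM for Atg13 and 7.38, 7.09 and 5.32 TPM for Rb1cc1. Ulk1, which encodes the kinase that gives the complex its name, had 3.68, 4.36 and 3.65 TPM and was the lowest. Between them in the gene table stood the regulatory subunit gene Atg13 with 8.05 ± 1.35 TPM, the second kinase gene Ulk2 with 6.16 ± 0.337 TPM and the Atg13 partner Atg101 with 4.31 ± 0.344 TPM (SD, n = 3 each). Ulk1 was below Ulk2 in each of the 3 libraries, with a log2 ratio of -0.66 ± 0.08, and below Rb1cc1 with a log2 ratio of -1.26 ± 0.23. By the second transcript table these ratios were -0.80 and -1.90. Both gaps were smaller on protein-coding transcripts only, at -0.31 ± 0.07 against Ulk2 and -0.76 ± 0.23 against Rb1cc1. Atg13 was above Atg101 in each library, with a log2 ratio of 0.89 ± 0.24. An exact sign-flip test over 3 libraries cannot give a two-sided p below 0.25, so for these and all later ratios the sign in each library is given and no p.

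Within the class III PI 3-kinase complex, the regulatory subunit gene Becn1 had the highest level. Most of its TPM was assigned to transcripts that are not annotated as protein-coding. Becn1 (Beclin 1; ENSMUSG00000035086.13, mm10 chr11:101285952-101302286, minus strand) had 33.7, 32.9 and 30.0 TPM, a range that did not reach that of any other gene of the complex in the gene table. Its log2 ratio over the catalytic subunit Pik3c3 (VPS34), at 5.23 ± 0.176 TPM, was 2.62 ± 0.04 (SD, n = 3). Counting protein-coding transcripts only, Becn1 had 4.0, 3.82 and 3.58 TPM and the ratio turned to -0.45 ± 0.06. These values rest on how reads were assigned to transcripts. The coding share of Becn1 was 11.8 ± 0.177% by TPM but 34.6 ± 2.22% by expected counts. By expected counts, the leading coding transcript Becn1-205 had 829, 1754 and 1287 in replicates 1, 2 and 3. Pik3c3-203, that of Pik3c3, had 984, 1913 and 1343. On coding transcripts Becn1 was thus below Pik3c3 in each library by both measures, but the size of the gap rests on the assignment. The pseudokinase scaffold Pik3r4 (VPS15) had 6.57 ± 0.290 TPM and Ambra1, a Beclin 1 binding regulator, had 7.24 ± 0.786 TPM. Pik3r4 was above Pik3c3 by a log2 ratio of 0.33 ± 0.09 in the gene table, but by transcripts summed from the second transcript table the ratio was -0.054, and on protein-coding transcripts only it was -0.53 ± 0.09.

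Atg14 and Uvrag encode alternative partners of Beclin 1, Atg14 for the complex that starts autophagosomes and Uvrag for the complex on endosomes. Atg14 had 2.79, 3.18 and 2.60 TPM and was the lowest gene of the complex. Uvrag had 17.4, 14.1 and 13.4 TPM, above Atg14 in each library. The log2 ratio of Atg14 over Uvrag was -2.38 ± 0.24 (SD, n = 3), and -2.34 ± 0.23 on protein-coding transcripts only. It was -3.01 by the second transcript table, where 30.4 ± 1.24% of Uvrag TPM lay on its coding transcript, against 97.2 ± 1.10% in the first.

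Genes of membrane supply were low as a group, with a median of 3.43 TPM over its 5 members. Atg9a, which encodes the lipid scramblase carried on small vesicles, was the highest with 6.36, 6.60 and 5.15 TPM. Wipi1, a phosphoinositide binding protein, was the lowest with 1.95, 1.82 and 1.83 TPM. Its paralogue Wipi2, which recruits ATG16L1, had 5.17 ± 0.609 TPM and was above Wipi1 in each library, with a log2 ratio of 1.46 ± 0.15 (SD, n = 3). The lipid transfer genes Atg2b and Atg2a had 3.43 ± 0.365 and 2.92 ± 0.103 TPM. The log2 ratio of Atg2a over Atg2b was -0.22 ± 0.17 in the gene table, with -0.03 in replicate 1, and 0.12 both by the second transcript table and on protein-coding transcripts only, so their order was not resolved.

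The conjugation enzymes stood higher, and the lowest gene of the whole set was among them. Atg3, the E2-like enzyme that transfers ATG8 proteins to lipid, had 20.0, 17.0 and 16.1 TPM. Atg7, the E1-like enzyme of both conjugation systems, had 13.7 ± 0.977 TPM, Atg5 had 11.7 ± 0.829 TPM and Atg12, the ubiquitin-like protein joined to ATG5, had 9.74 ± 0.563 TPM (SD, n = 3 each). Atg10, the E2-like enzyme for ATG12, had 3.89 ± 0.573 TPM and was below Atg3 in each library, with a log2 ratio of Atg3 over Atg10 of 2.19 ± 0.12.

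Atg16l1 and Atg16l2 encode paralogues that bind the ATG12-ATG5 conjugate, and ATG16L1 directs it to the membrane. Atg16l1 had 4.72 ± 0.727 TPM (SD, n = 3). Atg16l2 (ENSMUSG00000047767.17, mm10 chr7:101263034-101302251, minus strand) had 0.91, 0.89 and 0.72 TPM, under 1 TPM in all 3 libraries. The log2 ratio of Atg16l1 over Atg16l2 was 2.49 ± 0.17. With TPM computed over nuclear protein-coding genes alone, which multiplies the values by 3.02, 3.38 and 3.58 in replicates 1, 2 and 3, Atg16l2 passed the threshold with a mean of 2.78 TPM.

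The ATG4 proteases trim new ATG8 proteins so that a glycine is exposed for conjugation, and later cut them from lipid again. All 4 genes were detected and none dominated. By mean level Atg4a was the highest with 8.77, 7.93 and 7.47 TPM and Atg4c the lowest with 4.39, 4.22 and 4.52 TPM, which overlapped the range of Atg4d. The order at the top depended on the table, since Atg4b over Atg4a had a mean log2 ratio of -0.15 ± 0.23 in the gene table, 0.32 ± 0.23 by the second transcript table and 0.026 ± 0.12 on expected counts (SD, n = 3 each). Atg4a took 33.1 ± 1.79% of the summed TPM of the family, Atg4b 29.9 ± 3.17%, Atg4d 19.0 ± 2.09% and Atg4c 18.0 ± 0.926% (SD, n = 3). Atg4b over Atg4a was the only ratio of the 26 examined whose sign differed between libraries in the gene table, at -0.41, -0.09 and 0.05 on the log2 scale in replicates 1, 2 and 3. Atg4b was above Atg4c in each library with a log2 ratio of 0.73 ± 0.12, and above Atg4d with 0.65 ± 0.31. On protein-coding transcripts only, Atg4d had 0.49, 0.47 and 0.40 TPM, the lowest of the 4, and the ratio of Atg4b over Atg4d was 3.61 ± 0.32.

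Their substrates are the 5 ATG8 proteins, each cut after the glycine that is joined to lipid. The ends of the 5 coding sequences are shown because ATG4 cuts there, with the codon of that last glycine in capitals, read 5′ to 3′ on the plus strand from the GENCODE M21 transcripts (mm10) and ending in the stop codon.
Gabarap-201, chr11:69994498-69994524: agtgatgaaagcgtctatGGTctgtga
Gabarapl1-201, chr6:129541141-129541167: agtgatgaaagtgtctatGGAaaatga
Gabarapl2-201, chr8:111952379-111952405: agcggagagaacacttttGGCttctga
Map1lc3b-201, chr8:121596744-121596770: acattcGGGacagcaatggctgtgtaa
Map1lc3a-201, chr2:155277611-155277637: gcctcccaagaaaccttcGGCttctga
Map1lc3b carries 5 codons after the glycine and each of the other 4 genes carries 1, which is the same codon in Gabarapl2 and Map1lc3a. Translated from these transcripts, Gabarap and Gabarapl1 shared 86.3% of residues and Map1lc3b and Map1lc3a shared 81.8%, while Gabarap and Gabarapl2 shared 57.3% and Gabarap and Map1lc3b 31.6%, each over the aligned residues.

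Gabarap was by far the most abundant ATG8 mRNA in these cells. It had 236, 262 and 228 TPM in replicates 1, 2 and 3, which was 78.3 ± 1.59% of the family's summed TPM (SD, n = 3). Map1lc3b, which encodes LC3B, the protein most often used to mark autophagosomes, had 30.0, 26.2 and 21.8 TPM and took 8.41 ± 1.14%. The log2 ratio of Gabarap over Map1lc3b was 3.23 ± 0.22, a mean difference of 9.37-fold. It was 2.60 ± 0.12 by the second transcript table and 2.20 ± 0.11 on expected counts, positive in each setting but over 1.5 times smaller as a fold. In the gene table the gap was larger than the spread between libraries, as the lowest Gabarap value stood above the highest Map1lc3b value.

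The remaining ATG8 genes were lower. Gabarapl1 had 19.2, 24.8 and 19.5 TPM and took 6.83 ± 0.612% of the family's TPM. Gabarapl2 (GATE-16) had 17.2, 15.9 and 13.7 TPM and took 5.04 ± 0.464%. Both lay between Map1lc3a and Map1lc3b in each library, and Gabarapl2 was below Gabarapl1 in each library by a log2 ratio of -0.44 ± 0.25. Map1lc3a, which encodes LC3A, had 5.75, 4.10 and 2.98 TPM and took 1.38 ± 0.431%. It was the lowest of the family in all 3 libraries and the log2 ratio of Map1lc3b over Map1lc3a was 2.64 ± 0.25, and 3.37 ± 0.31 on protein-coding transcripts only.

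Among the cargo receptors, Sqstm1 exceeded every other gene in each library. Sqstm1 had 616, 610 and 303 TPM, or 510 ± 179 TPM (SD, n = 3), with replicate 3 far below the other two. Tax1bp1, a ubiquitin binding receptor that also restrains NF-kappaB signalling, had 58.6, 50.01 and 45.5 TPM. Nbr1, a receptor that acts with p62, had 15.7, 15.3 and 15.2 TPM, the most even values of the set on the TPM scale. Optn (optineurin), a receptor for bacteria and mitochondria, had 15.5, 12.3 and 8.99 TPM, highest in replicate 1 and lowest in replicate 3. Calcoco1, a receptor for endoplasmic reticulum and Golgi, had 3.77, 4.17 and 3.66 TPM and was the lowest of the 5.

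The ratios of Sqstm1 to the other receptors were wide but kept their sign. On the log2 scale Sqstm1 was above Tax1bp1 by 3.25 ± 0.46, above Nbr1 by 4.98 ± 0.57, above Optn by 5.34 ± 0.28 and above Calcoco1 by 6.97 ± 0.53 (SD, n = 3). Against Map1lc3b, the ATG8 gene it is usually measured with, the log2 ratio was 4.23 ± 0.39. Of all 26 ratios examined, 18 were positive in each library, 7 were negative in each library and that of Atg4b over Atg4a was mixed. On expected counts, which carry no length correction, Atg2a over Atg2b, Atg12 over Atg5 and Atg7 over Atg3 had the opposite sign, at 0.073, 0.83 and 0.33.

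**Figure D2:**
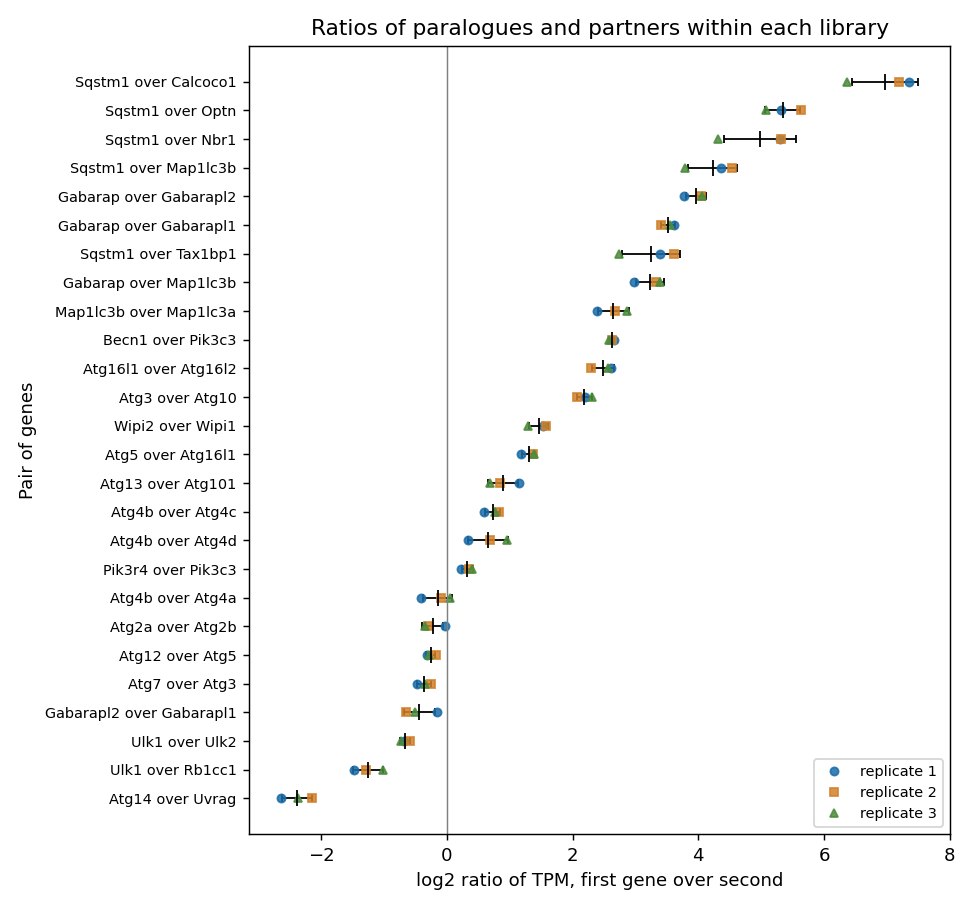
Log2 ratio of TPM for 26 pairs of autophagy genes within each library, the first gene over the second; symbols are the 3 libraries, black ticks the mean and bars the SD. Points to the right of 0 mean that the first gene is higher, as in 18 pairs; in 7 pairs all points lie to the left, and only Atg4b over Atg4a has points on both sides.

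No gene of the set was called more variable between libraries than genes of like abundance. Variability was tested with edgeR on rounded expected counts, by setting each gene's residual deviance against the dispersion expected at its abundance. None of the 37 genes was called at an adjusted p of 0.05 (Benjamini-Hochberg over all genes tested), against 240 of 12256 genes, or 1.96%. At an unadjusted p under 0.05, 1 of the 37 passed, against 6.88% of genes tested. With DESeq2 size factors 0 were called after adjustment and 1 passed without it. On CPM (counts scaled to library size) adjusted by the TMM method, 28 of the 37 had a coefficient of variation under 10%, against 55.1% of 9239 genes in the same range of CPM. The median coefficient of variation was 7.95% in the set and 9.14% in those genes.

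The gene that passed without adjustment was Sqstm1. Its TMM-scaled level was 1804, 1826 and 972 CPM in replicates 1, 2 and 3, and its adjusted p by the edgeR deviance test was 0.398. Replicate 3 alone was low, by 1.88-fold against the highest library, and without it 0 of the 37 genes passed even without adjustment. Map1lc3a, at 7.12, 5.07 and 4.04 CPM, and Optn, at 57.1, 47.0 and 36.7 CPM, were highest in replicate 1 and lowest in replicate 3, with adjusted p of 1.00 and 0.824 by the same test. At the other end, Becn1 had 69.2, 69.6 and 70.4 CPM, a coefficient of variation of 0.886%, and Wipi2, Pik3c3 and Atg2a stayed under 1.5%.

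Other values differed between the same libraries. Ifnb1, the interferon beta gene, had 26.5, 5.81 and 4.54 TPM, and Il6 had 28.6, 17.0 and 5.85 TPM, both highest in replicate 1. The nuclear RNAs Malat1 and Rn7sk were highest in replicate 3, at 103, 132 and 345 TPM and at 21186, 37904 and 76327 TPM. On the TPM scale 29 of the 37 genes were lowest in replicate 3, against 53.9% of detected genes. The median log2 ratio of replicate 3 over the mean of replicates 1 and 2 was -0.176 in the set and -0.120 in detected genes. After TMM scaling 15 of the 37 were lowest there, against 31.7% of genes tested. The part of these differences in the spread of Sqstm1 and Optn was not tested.

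**Figure D3:**
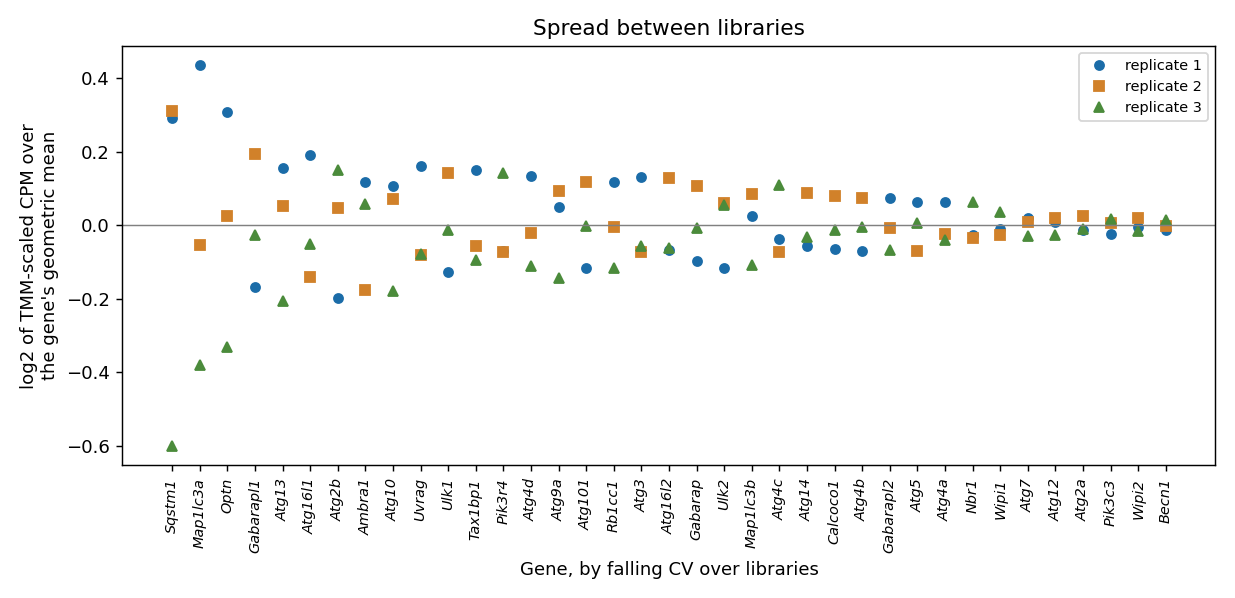
Log2 of each library's TMM-scaled CPM over the gene's geometric mean for the 37 autophagy genes, ordered by falling coefficient of variation; symbols are the 3 libraries. Sqstm1 stands out through replicate 3, Map1lc3a and Optn span replicate 1 to replicate 3, and the genes on the right, ending in Becn1, are nearly level.

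A gene's TPM can rest on transcripts that carry no full reading frame. In the first transcript table, 24 of the 37 genes had 95% or more of their TPM on transcripts annotated as protein-coding, and 9 had under 80%. The share of other genes at 95% or more was not computed. Of the 34 detected members with transcripts of both kinds, 8 were under 80%, against 20.0% of 7332 such genes, and their median share was 97.9% against 97.2%. The set as a whole was thus near the background, but Atg4d and Becn1 were far below it. Only 1.23% of those 7332 genes had a share under 20%.

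For Becn1, 11.9, 11.6 and 11.9% of TPM in replicates 1, 2 and 3 lay on protein-coding transcripts. The retained-intron transcript Becn1-211 of 487 nt led with 39.9 ± 2.40% of TPM, followed by Becn1-201, a transcript of 2123 nt marked for nonsense-mediated decay, with 31.6 ± 0.702% (SD, n = 3). The full-length coding transcript Becn1-205 of 4365 nt had 10.7 ± 1.09%. By expected counts, which are not divided by length as TPM is, the order was different. Becn1-201 held 45.9 ± 1.56% of counts, Becn1-205 33.9 ± 2.74% and Becn1-211 7.79 ± 0.737%. Up to its stop codon, Becn1-201 holds 64 bases on the minus strand that Becn1-205 lacks; they are shown because they bring that stop codon, in capitals (GENCODE M21, mm10).
Becn1-201, chr11:101296194-101296257: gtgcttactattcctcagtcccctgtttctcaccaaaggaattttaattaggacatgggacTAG

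Atg4d (ENSMUSG00000002820.6, mm10 chr9:21265293-21277772, plus strand) was the other gene with little TPM on coding transcripts. Its only protein-coding transcript, Atg4d-201 of 5951 nt, had 9.30, 10.1 and 9.98% of TPM. Atg4d-203, a retained-intron transcript of 2123 nt, had 61.6 ± 1.49%, and Atg4d-205, of the same class and 697 nt, had 22.5 ± 2.25% (SD, n = 3). By expected counts Atg4d-201 held 30.3 ± 1.21% and Atg4d-203 63.2 ± 1.15%. The first intron sequence that Atg4d-203 keeps is shown on the plus strand because it holds the first in-frame stop, in capitals, which comes after 257 residues where Atg4d-201 encodes 474 (GENCODE M21, mm10).
Atg4d-203, chr9:21268528-21268604: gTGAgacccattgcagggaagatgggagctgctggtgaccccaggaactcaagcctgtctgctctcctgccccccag

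Several measured facts stand beside these shares. The coding transcripts of both genes have long last exons in the annotation, 3030 nt in Becn1-205 against 720 nt in Becn1-201 and 4519 nt in Atg4d-201 against 492 nt in Atg4d-203. Becn1 shares 3104 of its exon bases with Cntd1 on the other strand, which had 0.02 TPM. Atg4d shares 1405 with Kri1 on the other strand, which had 8.51 TPM, and strand use in counting is not stated in the labels or notes. In the second transcript table the shares were lower still, at 5.06 ± 0.328% for Becn1 and 4.38 ± 0.180% for Atg4d. Their part in the low shares was not tested.

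The other genes under 80% kept a majority of TPM on coding transcripts. Pik3r4 had 54.8 ± 0.706%, with 33.7 ± 3.24% on the retained-intron transcript Pik3r4-211. Map1lc3a had 60.5 ± 6.04%, with the rest on the processed transcript Map1lc3a-203. Rb1cc1 had 70.4 ± 3.08%, Atg16l2 70.6 ± 5.88%, Atg4b 76.0 ± 5.18%, Atg2b 76.4 ± 3.30% and Ulk2 77.9 ± 0.275% (SD, n = 3 each). By expected counts 5 genes were under 80%: Atg4d, Becn1, Map1lc3a, Pik3r4 and Atg16l2. The share of other genes under 80% by expected counts was not computed.

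The transcript tables named the same leading transcript in 33 of the 37 genes, a count not made for other genes. The widest gap was in Uvrag. Its single coding transcript, Uvrag-201, had 97.2 ± 1.10% of TPM in the first table and 30.4 ± 1.24% in the second, where the decay transcript Uvrag-208 led with 37.7 ± 3.998% (SD, n = 3). For Becn1 the second table was led by Becn1-201, for Rb1cc1 by the short processed transcript Rb1cc1-202, and for Atg4c by Atg4c-201 in place of Atg4c-203, both coding. TPM in the second table was lower in general, with a median ratio of 0.557 to the first over 8833 genes. Uvrag and Rb1cc1 both stood at 0.856, above the 95th percentile of 0.696. Atg16l2 at 0.769, Atg4b at 0.750 and Map1lc3b at 0.733 were also above it. Gabarap at 0.476, Atg2b at 0.423 and Pik3r4 at 0.417 were below the 5th percentile of 0.497.

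**Figure D4:**
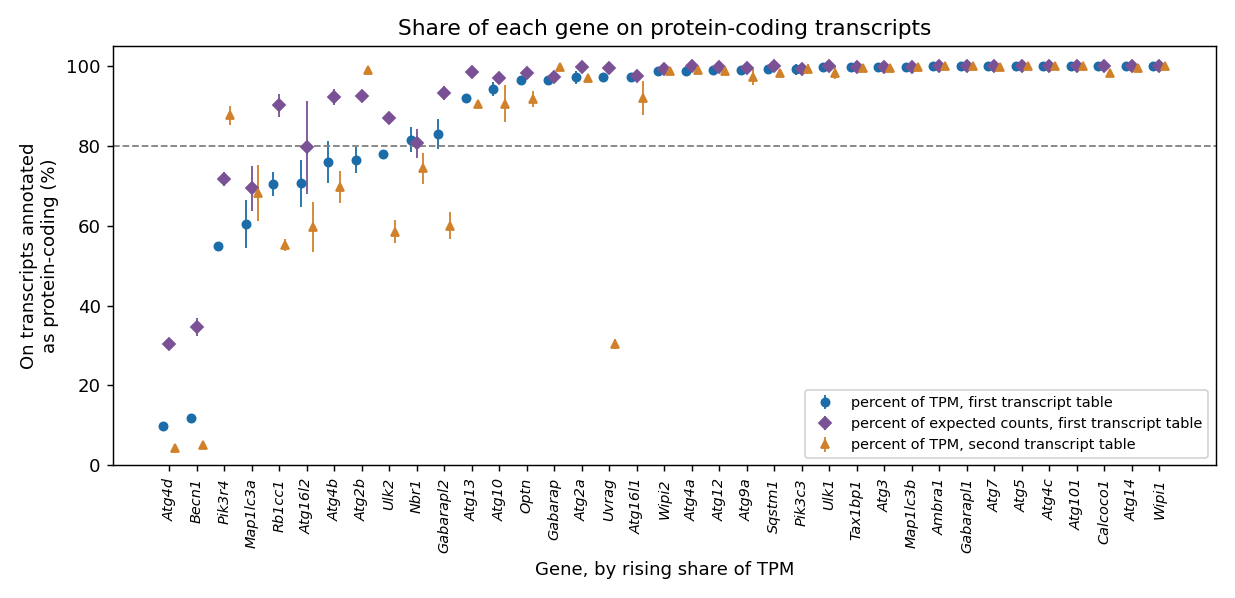
Share of each autophagy gene on transcripts annotated as protein-coding, in percent, as the mean with SD bars over 3 libraries, by TPM of the first transcript table, by its expected counts and by TPM of the second table; the dashed line marks 80%. Atg4d and Becn1 are lowest by all 3 measures, and Uvrag is low only in the second table.

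Genes that work beside the core machinery were also present, with 50 of 54 detected (92.6%), against 40.1% of protein-coding genes. They were taken from lists of formation and lipid supply, fusion with the lysosome, selective receptors and regulators. In the formation list, 11 of 13 were detected, and Sh3glb1, a Beclin 1 binding protein that curves membrane, was highest with 153, 119 and 107 TPM, followed by the lipid scramblase gene Vmp1 with 45.0, 37.5 and 43.2 TPM. Rubcnl (Pacer), a Beclin 1 complex regulator, had 1.38, 0.51 and 1.01 TPM and missed the threshold in replicate 2 alone, and Atg9b, the paralogue of Atg9a, had 0.24, 0.51 and 0.31 TPM. All 13 fusion genes were detected, led by the small GTPase gene Rab7 with 139, 139 and 120 TPM and the SNARE gene Vamp8 with 127, 103 and 89.3 TPM.

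Of 13 selective receptors and mitophagy genes 11 were detected, led by Ncoa4, the ferritin receptor, with 145, 104 and 92.9 TPM and Tex264, a receptor for endoplasmic reticulum, with 26.7, 27.4 and 22.5 TPM. Calcoco2, the mouse gene named for the receptor NDP52, had 0 counts in each library, which allows up to 0.0456, 0.0236 and 0.0320 TPM. All 15 regulators were detected, and the highest were the transcription factor gene Tfe3 with 34.4, 35.8 and 32.6 TPM and the kinase gene Tbk1 with 36.1, 28.9 and 27.8 TPM. None of these undetected or leading genes with counts was called variable by the edgeR deviance test, against 1.96% of all genes tested.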

How the data were processed

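For each of 3 libraries a gene table and 2 transcript tables were used. Per the authors' deposited README notes, the build was mm10, the annotation was GENCODE M21, transcriptome alignments gave the gene table and 1 transcript table (the first here), and FASTQ files gave the other. The programs and any use of strand were not stated there or in the labels. The authors deposited expected counts and, in the second table, estimated counts, which are not normalized. TPM values were computed by the authors and corrected for effective length, per the file headers. The percent column of the first transcript table is the share of a gene's TPM per transcript, per the file headers. The posterior SD of each count, deposited by the authors as a score of assignment error, was at most 1.10% of the count for any of the 37 genes.

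Levels were used as deposited. Variability was tested with edgeR 4.0.16 in R 4.3.3 on rounded expected counts, fitted over the whole table (filterByExpr, TMM, trended dispersion). Residual deviance was set against chi-square with 2 degrees of freedom. The test was tried on simulated counts drawn from the same trended dispersion. How often it calls a change of the size seen in Sqstm1 is not reported here. DESeq2 1.42.0 size factors served as an alternative. The other alternatives were thresholds of 5 and 0.5 TPM, a pseudocount of 0.1 TPM, no filter on low counts, a common dispersion, the second transcript table, expected counts, TPM over nuclear protein-coding genes and leaving out each library. Ratios on protein-coding transcripts only were added after seeing the data. Sequences came from GENCODE M21 transcripts.

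The genes and lists were chosen with earlier results of these data known. Values in every library were given for the highest and lowest gene of each role, all ATG8 genes and receptors, genes under 1 TPM in a library and, in the other lists, the 2 highest genes; transcripts were named where the coding share was under 80% or the tables differed in the leading transcript. Limits of 3 counts cover counting error only. PCR duplicates cannot be told from molecules here. Map1lc3a and Optn, with library facts such as Ifnb1 and Malat1, were singled out in the account of spread after their values were seen. The values of 1 gene of the selective receptor list are not reported here.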

Additional observations from a re-analysis of the deposited data

How the results depend on the processing

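Detection depended on the threshold: at 5 TPM 23 of the 37 genes were detected, at 0.5 TPM 37, and 36 whichever library was left out. The median of log2(TPM + 1), 2.94, was 2.76 with a pseudocount of 0.1 TPM, 3.02 over detected members only, 2.32 by the second transcript table and 4.54 with TPM over nuclear protein-coding genes, and 2.93 to 2.95 when each library was left out. Ratios with 1 sign in all libraries numbered 24 to 26 over all alternatives. Pik3r4 over Pik3c3 changed to -0.054 by the second table, Atg2a over Atg2b to 0.12 by the second table and 0.073 on expected counts, and Atg12 over Atg5 and Atg7 over Atg3 to 0.83 and 0.33 on expected counts, which carry no length correction. Atg4b over Atg4a, -0.15 and mixed in sign, was 0.32 by the second table and 0.026 on expected counts. Gabarap over Map1lc3b, 3.23, was 2.60 and 2.20 in those settings. On protein-coding transcripts only, chosen after seeing the data, 25 ratios had 1 sign, but Becn1 over Pik3c3 was -0.45, Pik3r4 over Pik3c3 -0.53 and Atg2a over Atg2b 0.12. No gene was called variable under DESeq2 size factors, no filter, the second table, a common dispersion or without any 1 library. Genes under 80% on coding transcripts numbered 10 by the second table, 5 by expected counts and 9 to 10 when each library was left out; why the tables differ was not tested. No paired analysis was possible because all libraries belong to 1 group. Depth limits Atg16l2 most, which had the lowest TMM-scaled level of the set, 3.43 to 3.93 CPM.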

Other observations

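Promoter sequence was looked up for the 37 genes in a RefSeq table (GRCm38.p6), 250 bases before to 50 after the start, and 31 genes had an entry. The letters CACGTG, the core bound by the TFEB and TFE3 family, occurred on either strand in the windows of Atg14, Atg3, Atg5 and Atg7, which is 4 of 31 genes (12.9%), against 8.09% of the 27025 genes in the table. The letters TGACNNNGC, the core bound by NRF2, occurred on either strand in those of Atg13, Map1lc3b, Tax1bp1 and Ulk2, again 4 of 31 genes, against 14.0% of genes in the table. A gene was counted when any of its windows held the letters. These are counts of letters in a window and were not tested.

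Exon bases shared with a gene on the other strand bear on several of the 37 genes, since strand use in counting is unknown here. Among these, Sqstm1 shared 580 with Mrnip (0.187 TPM), Gabarapl1 570 with 1700101I11Rik (0.0367 TPM), Uvrag 1589 with Gm45187 (0.01 TPM) and Atg2b 383 with Gskip (4.14 TPM). Atg16l2 shared 25 with Fchsd2 (18.1 TPM) and Atg9a 46 with Ankzf1 (2.27 TPM). On the same strand, Atg9a shared 1832 with Gm29253 (0.0833 TPM), and no other of the 37 shared exon bases with an annotated gene on its own strand.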
